A study of Solenopsis japonica with 2 samples.

Results

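The acyl-CoA synthetases and peroxisomal fat enzymes described here are 15 contigs of the 4487 in the authors' table of *Solenopsis japonica* workers held at 9 °C (T9) or 25 °C (T25). They were chosen by the words of their best match in the protein database NR or the nucleotide database NT: luciferin 4-monooxygenase, coumarate--CoA ligase, fatty-acid--CoA ligase, acyl-CoA dehydrogenase, acyl-coenzyme A oxidase, carnitine or peroxisom. Fatty acyl-CoA reductases and desaturases were left out. *S. japonica* is a small predatory ant of the soil, and the RNA came from whole bodies of wild-type adult medium workers. Both groups came from colonies kept at 25 °C on sucrose solution and mealworms, and they were then incubated for 24 h at 9 °C or, as the control, at 25 °C. Each temperature is represented by 1 library, pooled from 5 ants according to the methods, which also describe 3 independent preparations per treatment without saying how they relate to the libraries, so no ratio can be set against the spread between pools of ants and no test was made. The table holds only contigs that the authors selected by fold change and raw p-value, and the paper reports far fewer as differentially expressed. Of the 15, those in the paper's list are c78161_g1_i2, c76863_g1_i2, c119320_g1_i1, c86095_g2_i2 and c83474_g1_i2. The smallest difference in the table is 2.35-fold. A change of at least that size in each contig thus follows from being listed, and only direction and size are open.

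A fatty acid must be joined to coenzyme A before a cell can burn it, store it or lengthen it, and acyl-CoA synthetases (ligases) carry out that step. Activated long-chain acids reach the mitochondrion through the carnitine shuttle and are shortened there, starting with acyl-CoA dehydrogenases, while peroxisomes shorten very long or branched acids with oxidases that release hydrogen peroxide. Firefly luciferase (luciferin 4-monooxygenase) and the plant enzyme 4-coumarate--CoA ligase belong to the same AMP-forming enzyme family as the acyl-CoA synthetases, and insect members of the family often carry these names without making light or lignin.

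All 15 contigs were higher in the T9 library, against 54.7% of the whole table. Their counts add up to 52910 in T9 and 12972 in T25, which is 3.77-fold higher in T9 (95% interval 3.70 to 3.85). Intervals given here are exact Clopper-Pearson intervals on the 2 counts, scaled by the normalised library sizes of 53237356 (T9) and 49264352 (T25), and they cover counting error only. Contigs with many counts leaned to T9 throughout the table: of those with a total of at least 1000 counts 79.7% were higher in T9, and the 7 of the 15 contigs with such totals are to be read against that share. A ratio of at least 4-fold was found for 7 of 15 contigs, against 36.9% of all contigs and 67.5% of the contigs higher in T9, and the other direction, 0 of 15, stands against 30.8%. The count of 7 became 1 with the median of all contigs set to 0 and 10 with the ratio of the deposited FPKM. The median log2 ratio, taken after adding 1 scaled count, was 1.93, while that of all contigs higher in T9 was 2.15. Of the 15 contigs 5 lay above the median ratio of the contigs higher in T9 and 10 at or below it. The 7 contigs with totals of at least 1000 counts had a median ratio of 3.37, the same as the median difference of 3.37-fold among all contigs with such totals. The group thus had a single direction, and its median ratios were ordinary for this table. The whole counting interval lay above 4-fold for 5 of 15 contigs, of which 3 match the same gene. That stands against 16.0% of the contigs higher in T9 and 8.74% of all contigs.

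**Figure D1:**
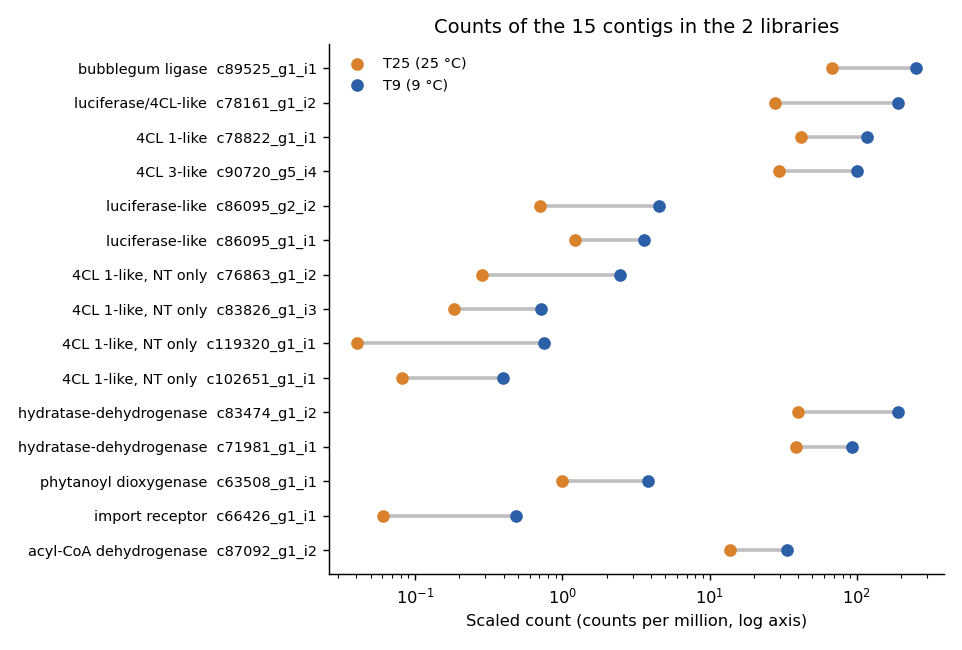
Scaled counts of the 15 contigs in CPM (counts scaled by library size) on a log axis, 1 point per library (T25 orange, T9 blue) joined by a grey line; in the row names 4CL is short for 4-coumarate--CoA ligase. In each contig the T9 point lies to the right of the T25 point, and the levels run from 0.0406 to 254 CPM.

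The names divide into 10 contigs of the synthetase family, 4 found by the word peroxisom and 1 acyl-CoA dehydrogenase. Carnitine and acyl-coenzyme A oxidase, which stand for the mitochondrial shuttle and the entry step of peroxisomal shortening, matched 0 contigs, and because unchanged contigs and contigs with a count of 0 were left out of the table this says nothing of their level. The label was checked against the other databases of the table. Of the 10 synthetase contigs 6 had the AMP-binding domain of that family as Pfam match. The other 4 (c76863_g1_i2, c83826_g1_i3, c119320_g1_i1 and c102651_g1_i1) are named by their nucleotide match only and hold 231 of the 35840 synthetase counts in T9. One of them, c83826_g1_i3, had instead a Myb-type DNA-binding domain and a best KEGG match to an uncharacterized aphid protein, so its protein matches go against the name. The 15 contigs match 12 different genes by their NT entry.

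The very long-chain-fatty-acid--CoA ligase bubblegum (c89525_g1_i1) had the largest counts of the group. In *Drosophila* this enzyme activates long and very long fatty acids, and its loss leads to degeneration in the nervous system. The contig had 13535 counts in T9 and 3352 in T25, or 254 and 68.0 CPM. It was 3.74-fold (3.60 to 3.88) higher in T9 and holds 25.6% of the group's counts in T9. Its FPKM, the level per length, was 107 in T9 and 26.2 in T25, above 97.7% and 96.6% of the contigs of the table in the respective library.

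The luciferin 4-monooxygenase-like contig c78161_g1_i2 showed the largest ratio among the contigs with many counts. Its GO match is the *Drosophila* gene CG6178, annotated with long-chain fatty acid-CoA ligase activity and with the peroxisome. It was 6.78-fold (6.41 to 7.18) higher in T9. It had 92.8 FPKM in T9 and 12.5 FPKM in T25, close to bubblegum in T9 and well below it in T25. Its scaled counts were 189 CPM in T9 and 27.9 CPM in T25. It made up 19.0% of the group's counts in T9 and 10.6% in T25.

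The NT entry of c78161_g1_i2, the *S. invicta* gene LOC105196063 (4-coumarate--CoA ligase 1-like), is also the best match of c76863_g1_i2 and c119320_g1_i1. The smaller contig c76863_g1_i2 had 132 counts in T9 and 14 in T25, a ratio of 8.72 (5.02 to 16.4). For c119320_g1_i1 the counts were 40 and 2, with a ratio of 18.5 (4.80 to 158). By count per FPKM their effective lengths are 30.7% and 10.1% of that of c78161_g1_i2, and in T9 their FPKM was 23.4 and 25.3 times lower than that of the main contig. Both had an NT match alone, with no protein match, and the ratios of the 3 contigs overlap in their counting intervals. They may share reads, which the counting would divide among them, so they are not 3 separate pieces of evidence. Summed over the gene, 10235 counts stood against 1390, 6.81-fold (6.44 to 7.21) higher in T9.

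A pair of contigs with the NR name luciferin 4-monooxygenase-like, both with the AMP-binding domain, had far fewer counts and unlike ratios. The contig c86095_g2_i2 (LOC105196065), also chosen by the authors for RT-qPCR, had 2.90 FPKM in T9 and 0.42 FPKM in T25, from 240 and 35 counts. The paper reports that RT-qPCR of its chosen genes changed in the same direction as the sequencing, and its text gives no value for this contig. The contig c86095_g1_i1 (LOC105196068), of the same assembly cluster, had 2.39 FPKM in T9 and 0.74 FPKM in T25, from 192 and 60 counts. In the T9 library the levels were close, and in the T25 library the former lay below the latter. The ratio of c86095_g2_i2 was 6.35 (4.44 to 9.33) and that of c86095_g1_i1 2.96 (2.21 to 4.03), so the former was 2.14 times (1.33 to 3.50) the latter, a difference beyond counting error. Contigs of a single cluster share sequence, and how reads common to both were divided was not tested. Both contigs also have the same EggNOG match as c78161_g1_i2, although the NT genes differ, so they may be less separate than their NT entries make them.

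Of the 4-coumarate--CoA ligase-like contigs, c78822_g1_i1 and c90720_g5_i4 have the *Drosophila* gene pudgy as GO match, annotated with acyl-CoA synthesis, breakdown of triglycerides and fatty acids, and restraint of insulin receptor signalling. The 4-coumarate--CoA ligase 1-like contig c78822_g1_i1 had 6233 counts in T9 and 2059 in T25, a ratio of 2.80 (2.66 to 2.95). The probable 4-coumarate--CoA ligase 3 contig c90720_g5_i4 had 5346 and 1468 counts, a ratio of 3.37 (3.18 to 3.57). Of all contigs higher in T9, 9.57% and 21.2% lay below them, but many of those have few counts. Where the total reached 1000 counts the median difference in either direction was 3.37-fold, which is the value of c90720_g5_i4 itself. The remaining contigs of these names rest on few counts. The contig c83826_g1_i3, whose name is in doubt, had 38 counts in T9 and 9 in T25 and a ratio of 3.91 (1.86 to 9.19). The contig c102651_g1_i1, matched to a gene of the ant *Wasmannia auropunctata*, had 21 and 4 counts and a ratio of 4.86 (1.64 to 19.5). Over the 10 synthetase contigs the median log2 ratio was 1.97, and over the 6 with the AMP-binding domain it was 1.83.

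**Figure D2:**
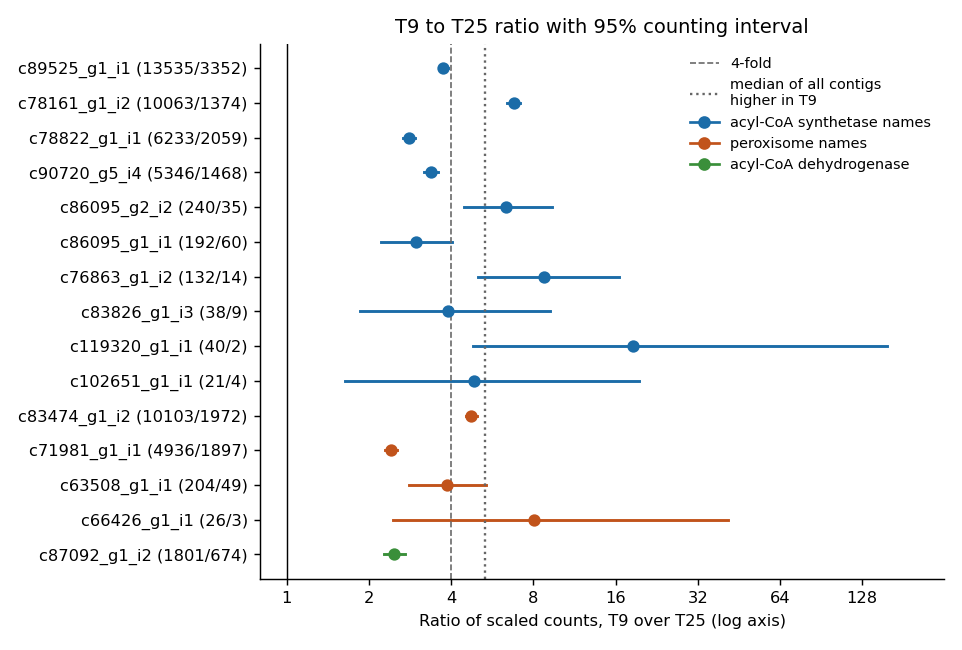
T9 to T25 ratio of scaled counts for the 15 contigs (points, log axis) with the exact 95% counting interval (lines) and the counts of T9 and T25 in parentheses. Each interval lies above 1, and 5 of them lie wholly above the dashed line at 4-fold, against 8.74% of all contigs of the table and 16.0% of those higher in T9.

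The counting interval lay wholly above 4-fold for c78161_g1_i2, c76863_g1_i2, c119320_g1_i1, c86095_g2_i2 and c83474_g1_i2, of which 3 match the same gene. Ratios of contigs with few counts need care because the table admits them only at larger differences. The smallest difference was 3.89-fold among contigs with a total of up to 29 counts and 2.35-fold among those with at least 1000. The 4 contigs of the group with totals under 100 had ratios of 3.91 to 18.5, and the 7 with totals of at least 1000 had ratios of 2.41 to 6.78.

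The peroxisome names cover enzymes and an import receptor, and most of their counts lie in a pair of contigs with the NT match peroxisomal hydratase-dehydrogenase-epimerase-like (LOC105197412). The enzyme of that name is known from fungi, where it carries out the middle steps of fatty acid shortening in the peroxisome. The contig c83474_g1_i2 had 10103 counts in T9 and 1972 in T25, a ratio of 4.74 (4.52 to 4.98). The contig c71981_g1_i1 had 4936 and 1897 counts, a ratio of 2.41 (2.28 to 2.54), at the lower edge of the table with 0.692% of the higher contigs below it. In T9 the FPKM was 121 for the former and 74.0 for the latter, and in T25 it was 23.2 and 28.1, so the order of the pair was reversed between the libraries. The ratio of the former was 1.97 times (1.83 to 2.12) that of the latter, beyond counting error. The KEGG match of both contigs and the NR match of c71981_g1_i1 carry the same name, while the other matches do not name a peroxisomal enzyme. Both carry only the short-chain dehydrogenase domain, their GO match is 15-hydroxyprostaglandin dehydrogenase of the chicken, an enzyme that inactivates prostaglandins, and in UniProt c83474_g1_i2 is closest to an alcohol dehydrogenase of the olive fly. Their EggNOG matches are different genes of the ant *Atta cephalotes*, so the shared NT entry does not settle whether they are pieces of a single gene.

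Phytanoyl-CoA dioxygenase, peroxisomal-like (c63508_g1_i1), stands for the removal of a single carbon from branched fatty acids, which in mammals takes place in the peroxisome. It had 204 counts in T9 and 49 in T25, a ratio of 3.85 (2.81 to 5.38). The peroxisomal targeting signal 1 receptor (c66426_g1_i1), which brings enzymes into the peroxisome, had 26 and 3 counts and a ratio of 8.02 (2.46 to 41.4). These are the contigs whose names point most directly to the peroxisome, and both had an NT match only, with no protein match and no domain. Over the 4 contigs with peroxisome names the median log2 ratio was 2.08.

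The mitochondrial step is represented by short/branched chain specific acyl-CoA dehydrogenase (c87092_g1_i2), which in mammals acts in the breakdown of isoleucine and of short acyl-CoAs. It had 1801 counts in T9 and 674 in T25, or 17.6 and 6.50 FPKM. With 2.47-fold (2.26 to 2.71) it was near the smallest ratio of the table, and 2.04% of the higher contigs lay below it. Here the NT, KEGG and UniProt names and the Pfam domain point to the same enzyme.

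**Figure D3:**
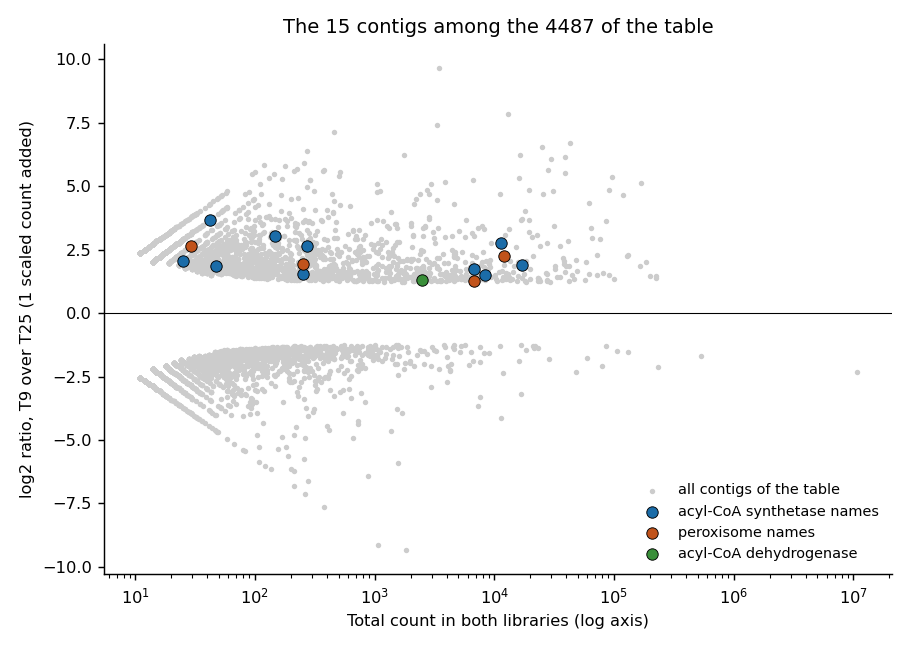
Log2 ratio of T9 over T25 (1 scaled count added) against the total count in both libraries (log axis) for the 4487 contigs (grey) and the 15 contigs (coloured by name group). The coloured points lie between 1.27 and 3.68, inside the upper band of the table, and the empty band around 0 is where unchanged contigs were left out.

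Lists by protein domain and GO term, which the word rule did not use, overlap the group and are not separate support for its direction. The AMP-binding domain was found in 8 contigs of the whole table, 6 of them in the group, and 8 of 8 were higher in T9. Those outside the group are acyl-CoA synthetase family member 2 (c66944_g1_i1), an enzyme for medium-chain acids, with 12822 counts in T9 and 2970 in T25, 3.99-fold (3.84 to 4.16) higher, and acyl-CoA synthetase short-chain family member 3 (c85548_g1_i3), with 41381 and 15482 counts, 2.47-fold (2.43 to 2.52) higher. The short-chain dehydrogenase domain was found in 6 contigs, 2 of them in the group, and 6 of 6 were higher. The GO term peroxisome was attached to 15 contigs, of which 3 belong to the group and 7 are fatty acyl-CoA reductases, and 15 of 15 were higher. These counts stand beside the 54.7% of the table and the 79.7% of its contigs with totals of at least 1000 counts. Contigs within a list are not independent.

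Other genes of fat handling were taken from 5 word lists. Acyl-CoA and fatty acid binding and transport had 5 of 5 contigs higher in T9, beside 54.7% of all contigs and 79.7% of those with totals of at least 1000 counts. Bubblegum and both synthetases just described are among the 5, and a further contig matches the same NT gene as acyl-CoA synthetase family member 2. The count therefore says little about the list. Acyl-CoA-binding protein (c103646_g1_i1), a carrier of activated fatty acids named after its values were seen, had 4571 counts in T9 and 1564 in T25, 2.70-fold (2.55 to 2.87) higher. The later steps of fatty acid oxidation gave a single contig, enoyl-CoA delta isomerase 2 (c87584_g2_i1), which handles unsaturated acids, with 20 and 4 counts and a ratio of 4.63 (1.55 to 18.6). Antioxidant enzymes had 2 of 2 higher, to be read beside the same shares. They are catalase (c118136_g1_i1), which breaks down the peroxide made in peroxisomes, 2.54-fold (2.51 to 2.58), and superoxide dismutase [Cu-Zn] 2 (c90873_g1_i1) 3.66-fold (3.58 to 3.75). Ketone body and acetyl-CoA supply had 0 contigs in the table.

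Lipid droplet and lipoprotein genes were higher in 5 of 6 contigs, beside 54.7% of all contigs and 79.7% of those with totals of at least 1000 counts, so the count says little about the list. Apolipophorins (c84287_g2_i1), the carrier of fat in insect blood, had 150479 counts in T9 and 50431 in T25, or 2.76-fold (2.73 to 2.79) higher, vitellogenin (c89203_g1_i4), the yolk protein, was 2.85-fold (2.81 to 2.89) higher and lipid storage droplets surface-binding protein 2-like (c30207_g1_i1), which coats stored fat, was 2.58-fold (2.41 to 2.76) higher. The largest ratio of the list was that of vitellogenin-3 (c74904_g1_i2), also named after its values were seen. It had 142 counts in T9 and 2 in T25, 65.7-fold (17.9 to 548) higher. The exception, named after its values were seen, was hormone-sensitive lipase (c102478_g1_i1), an enzyme that releases stored fat, with 12 counts in T9 and 71 in T25 and 6.39-fold (3.44 to 13.0) lower in T9. Its name rests on an NT match alone, with no protein match and no domain.

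**Figure D4:**
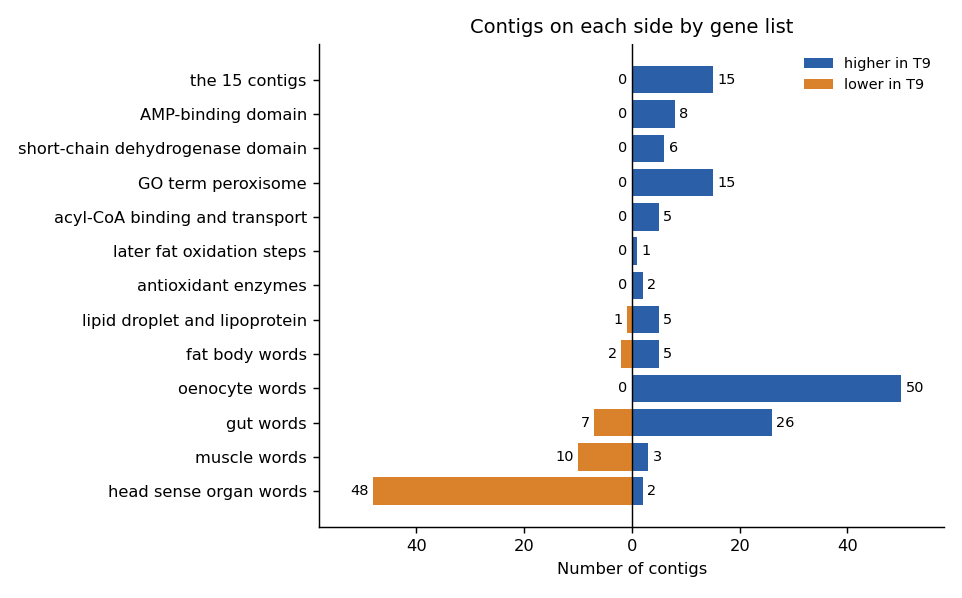
Number of contigs higher (blue, to the right) and lower (orange, to the left) in the T9 library for the 15 contigs, for 2 protein domains and a GO term, for lists of fat handling and for word lists of 5 tissues; lists overlap in part. The fat-handling lists lie to the right apart from 1 contig, while the tissue lists run from 50 of 50 higher for the oenocyte words to 2 of 50 higher for the head sense organ words.

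Whole ants were sequenced, so fewer cells of a tissue and less RNA per cell cannot be told apart. Word lists for 5 tissues are to be read beside the 54.7% of all contigs higher in T9, and 79.7% of those with totals of at least 1000 counts. For oenocytes, which make cuticular lipids, the words were cytochrome P450 4g15, fatty acyl-CoA reductase, fatty acid synthase, elongation of very long chain and desaturase. They name enzymes of lipid synthesis, so the list need not mark oenocytes alone. It had 50 contigs, all 50 higher in T9, with 7179 CPM in T9 and 1172 in T25. The fat body words were vitellogenin, hexamerin, arylphorin, apolipophorin and transferrin. They had 5 of 7 contigs higher, with 4448 and 1556 CPM, largely from the apolipophorins and vitellogenin contigs described above. The other 2 fat body contigs were at least 4-fold lower in T9. The gut words had 26 of 33 contigs higher, with 8584 and 361 CPM. Set beside those shares, the numbers of contigs higher in T9 say little about either tissue. The sizes of the gut differences were larger. Of the 33 gut contigs 24 were at least 4-fold higher, against 36.9% of all contigs, and 4 at least 4-fold lower, against 30.8%. The summed gut counts were 23.8-fold higher in T9. The muscle words had 3 of 13 contigs higher, with 915 and 1933 CPM, and the head sense organ words 2 of 50, with 66.2 and 500. For comparison the 15 contigs added up to 994 CPM in T9 and 263 in T25. The part of these differences between word lists in the ratios of the 15 contigs was not tested.

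The single direction depends on the scaling. With the median of all contigs of the table set to 0, a shift of 1.45 on the log2 scale, 13 of 15 contigs lay above 0, and the ratios of c71981_g1_i1 and c87092_g1_i2 became 0.883 and 0.907. That scaling takes as its zero a table without unchanged contigs. With the ratio of the deposited FPKM in place of scaled counts, all 15 remained higher in T9, each by a further factor of about 1.095.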

How the data were processed

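RNA of whole workers was sequenced in 1 library per temperature. By the study's methods and the submitters' processing notes, reads were checked with FastQC 0.11.7, trimmed with Trimmomatic 0.38, pooled and assembled with Trinity, clustered with CD-HIT, aligned with Bowtie 1.1.2 and counted with RSEM. The counts deposited by the authors are whole numbers per contig, without normalization and without contigs at 0. The deposited log2 values are log2(CPM + 1), and the library sizes used for scaling were recovered from them. The deposited FPKM values, which the authors scaled by contig length and depth, served for levels between contigs. The authors' fold change and p-value columns were not used. Sequences were not used here.

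Ratios and intervals were computed with scipy 1.17.1, pandas 2.3.3 and numpy 2.4.6 under Python 3.11.15, checked on simulated data, and plotted with matplotlib 3.10.9. The simulated contigs were not selected by fold change or p-value, so the check does not cover the effect of that selection on the intervals. No test was made, since 1 library per group leaves no spread. Each contig found by the words is named; from each list of fat handling at most the 3 with the largest totals are named, and exceptions are stated. The members and lists were chosen with earlier results of these data known. NR descriptions carry no gene number and give different genes the same text, so contigs were summed by NT gene. Alternatives covered scaling, pseudocount, thresholds, the database searched and the counting unit.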

Additional observations from a re-analysis of the deposited data

How the results depend on the processing

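No paired analysis was possible because each group has 1 library, and leaving out a library was not possible for the same reason. The limits are those of a table that holds only contigs called different, of counts as low as 2 in a library, and of names taken from other species. The carnitine group had no contig and gave no value.

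With the median of all contigs set to 0, the count of contigs at least 4-fold higher in T9 became 1, and the median log2 ratio became 0.48 for the 15 contigs, 0.52 for the synthetases, 0.64 for the peroxisome names and -0.14 for the acyl-CoA dehydrogenase, which turned its direction. The ratio turned to 0.883 for c71981_g1_i1 and 0.907 for c87092_g1_i2. The count of 7 contigs past 4-fold became 11 at 3-fold, 10 with the FPKM ratio, 4 with a total of at least 100 counts, 4 genes when summed by NT gene (chosen after seeing the data), 2 with the NR description only and 2 of the 6 contigs with the AMP-binding domain. The sum by NT gene joins c83474_g1_i2 and c71981_g1_i1 at 3.60-fold, below the threshold, although their EggNOG matches differ. The NR description alone found 7 contigs, all 7 higher in T9. A pseudocount of 0.5 or 5, the ant match, the sum by NR match, the AMP-binding domain (chosen after seeing the data) and the FPKM ratio left the medians within the spread of their contigs. Depth limits the 4 contigs with totals under 100 counts, whose intervals are wide.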
